A study of Rattus norvegicus with 64 samples.

Results

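The genes described here encode the proteins of the cytosolic ribosome, read in the lungs of rats that had breathed filtered air or fracking sand dust. Members were all rows of the count tables whose symbol has the form of a ribosomal protein gene (Rpl or Rps followed by a number, with or without an added letter and digit, and Rpsa, Rplp0, Rplp1 and Rplp2) and whose counts over the 64 libraries summed to at least 100. Of 88 matching symbols, 83 met that minimum, 49 of the large and 34 of the small subunit, out of 30045 rows in the tables. The 5 left out were Rpl7a with 4 counts, Rpl35a with 9, Rps9 with 29, Rps27l3 with 49 and Rpl30l1 with 72. Just inside the minimum stood Rpl39l with 134 counts and Rpl3l with 153. The rule used symbols and summed counts over all libraries and no comparison between groups.

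All rats were male Sprague-Dawley rats, an outbred strain, and each library was made from a piece of lung. They breathed filtered air or dust of the sand used in hydraulic fracturing, in a chamber that exposes the whole body, for 6 hours a day on 4 days, and lungs were taken 1, 7 or 27 days afterwards. Dust at 10 mg/m3 and dust at 30 mg/m3 were separate studies, each with air rats of its own. The 10 mg/m3 study held 5 rats per group on days 1 and 7 and 4 per group on day 27, and the 30 mg/m3 study held 6 rats in each of its 6 groups. Whatever was done separately in the studies, the making of the count tables included, cannot be told apart where libraries of one study are set beside those of the other; the air rats of each study allow that comparison without dust. The number in each library's title was taken as the number of the rat; nothing else in the labels says that the libraries are of separate rats, so p-values measure the spread between these libraries.

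A cytosolic ribosome joins a small subunit, which reads the mRNA, with a large subunit, which forms the peptide bonds, and each ribosomal protein is present once per ribosome except for the acidic stalk proteins Rplp1 and Rplp2. Most of the mRNAs start with a cytosine followed by a run of pyrimidines, the 5′ terminal oligopyrimidine tract through which mTOR signalling and the protein Larp1 control their translation and stability. The genes have left large numbers of processed pseudogenes in mammalian genomes, so a read from such an mRNA can also match an intronless copy elsewhere. Some members have a paralog used in particular tissues, such as Rpl3l in striated muscle, Rpl22l1 beside Rpl22, Rpl39l beside Rpl39 and Rps27l, a p53 target, beside Rps27.

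RefSeq start sites were found for 62 of the 83 members in a promoter table of the rat assembly GRCr8, with 1 further member left out because it has 2 rows there. The start was a C followed by at least 4 further bases of C or T in 22 of the 62 (35.5%, 95% Wilson interval 24.7 to 47.9), against 2.63% of all 33469 promoters in the table. The sequences show 15 bases before and 15 bases from the start for members that the results turn on, with the tract that begins at the start in capitals:
Rplp0: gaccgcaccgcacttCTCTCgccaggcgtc
Rps27: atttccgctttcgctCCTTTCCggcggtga
Rps18: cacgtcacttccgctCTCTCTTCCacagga
Rpl28: ccccgcccctagtgtCTTTCTTTCCgtctc
Rpl31: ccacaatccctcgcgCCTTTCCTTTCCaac
Rpl39: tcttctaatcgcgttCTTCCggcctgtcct
Rpl10a: gaaaccttctgccttCTTTTCCggttcccg
Rpl9: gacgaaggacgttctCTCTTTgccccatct
These lie, in the same order, at chr12:46718376-46718405 (minus strand), chr2:177964592-177964621 (minus), chr20:4933730-4933759 (plus), chr1:78083518-78083547 (minus), chr9:49143096-49143125 (plus), chrX:121195882-121195911 (minus), chr20:6390518-6390547 (plus) and chr14:43247575-43247604 (plus) of GRCr8. The 8 tracts were 5 to 12 bases long, the longest at Rpl31.

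At other members the annotated start had no such tract, as these sequences show, among them the members that differed most between the studies (Rpl38, Rps12, Rpl36), the member that varied widely within groups (Rps16) and 3 paralogs of other members:
Rpl38: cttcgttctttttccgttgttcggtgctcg
Rps12: gcacagaagcccagcagagcgcttaaatac
Rpl36: ctgtccggccgccatcggaaagctgcaggt
Rps16: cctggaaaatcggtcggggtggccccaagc
Rpl3l: gacctctggtgcctggtggggaggtccctt
Rpl22l1: gctccgtggatatccggttccgagttgcgc
Rps27l: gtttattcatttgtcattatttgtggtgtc
These lie at chr10:100200420-100200449, chr1:23500060-23500089, chr9:1533765-1533794, chr1:92770643-92770672, chr10:14258431-14258460, chr2:113683181-113683210 and chr8:76443643-76443672, all on the plus strand of GRCr8. A start annotated a few bases away hides a tract, and with 5 bases of tolerance to either side 37 of 62 members (59.7%) had one, against 17% of all promoters. In the window from 250 bases before to 50 bases after the start, on either strand, the ETS factor motif CCGGAAG stood in 21 of 62 members (33.9%, against 8.75% of all), and the Sp1 motif GGGCGG in 35 (56.5%, against 33.1%). The YY1 motif AAGATGG stood in 8 (12.9%, against 7.01%) and the TATA box letters TATAAA in 8 (12.9%, against 14.2%). These matches describe the letters in the window and not binding.

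The 83 members together took 1.44% ± 0.178 (SD, n = 28) of the counts of a library in the 10 mg/m3 study, with a range from 1.12% to 1.81%. In the 30 mg/m3 study they took 1.97% ± 0.227 (SD, n = 36), with a range from 1.57% to 2.52%. The ranges overlapped, and the large subunit held 0.907% and 1.25% of counts and the small subunit 0.535% and 0.721% in the respective studies. In air rats at day 1 the share was 1.60% ± 0.224 (SD, n = 5) in the study of the lower dose and 2.0% ± 0.165 (SD, n = 6) at the higher, and in dust rats at day 1 it was 1.53% ± 0.222 (SD, n = 5) and 2.17% ± 0.246 (SD, n = 6). Dust and air groups of the same study and day overlapped in every case. Library totals ran from 3420235 counts (rat 27, dust 10 mg/m3, day 1) to 12359518, the alveolar type 2 marker Sftpc stood between 6748 and 13430 CPM (counts relative to the library total) in every library, and the share of the mitochondrial ribosomal RNAs Rnr1 and Rnr2 ran from 0.0961% to 4.43%. Rats 51 and 53 (air, 30 mg/m3 study, day 1) had counts for 21889 and 22077 genes, against a median of 19263 over all 64 libraries. Bulk lung cannot tell fewer cells of a type from less RNA per cell.

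**Figure D1:**
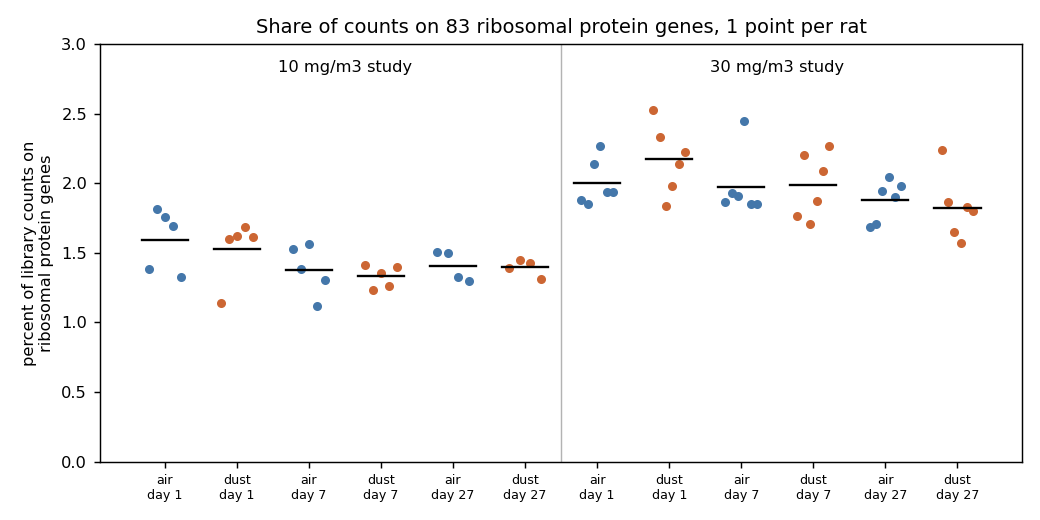
Percent of each library's counts on the 83 ribosomal protein genes (vertical axis) by group, 1 point per rat, blue for air and orange for dust, with the group mean as a bar. Libraries of the 30 mg/m3 study lay between 1.57% and 2.52% and those of the 10 mg/m3 study between 1.12% and 1.81%, and dust and air of the same day overlapped.

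Levels are given below as CPM scaled by TMM factors, which correct for the makeup of each library. Because gene lengths were not used, levels of different genes are not ranked. A level given at 10 or 30 mg/m3 covers all rats of that study, air rats included, unless a group is named. Rplp0, the stalk protein that anchors Rplp1 and Rplp2 and a common reference gene, ran from 512 to 923 CPM at 10 mg/m3 and from 688 to 1541 CPM at 30 mg/m3. Rpl3, which lies at the peptidyl transferase centre, had medians of 566 and 602 CPM and was among the steadiest members. The standard deviation of its log2 level around the group means was 0.14, as for Rpl18 (0.14) and Rpl13a (0.15). Rpsa, the laminin receptor precursor of the small subunit, had medians of 529 and 600 CPM, and Rps27 of 255 and 341 CPM. Rps4x, an X-linked small subunit protein, had medians of 141 and 116 CPM in its own row. With the row LOC100362640, now also named Rps4x, added they were 383 and 537 CPM.

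The paralogs were detected to very different extents. Rpl22l1, the paralog that can replace Rpl22, had a median of 29.3 CPM at 10 mg/m3 and 31.9 CPM at 30 mg/m3, where Rpl22 had 82.2 and 94.1 CPM. Rps27l had 33.9 and 37.4 CPM. Rpl39l, best known from the testis, had between 0 and 15 counts in a library. Rpl3l had between 0 and 14 counts and was at 0 in 11 of 28 libraries of the 10 mg/m3 study and 5 of 36 of the 30 mg/m3 study. Rps6, the small subunit protein that S6 kinase phosphorylates, carried only 299 counts over the 64 libraries and at most 18 in any library.

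The rows of Rpl35a and Rpl7a, both core proteins of the large subunit, held 9 and 4 counts over the 64 libraries; why these rows and that of Rps6 are low was not tested. Rows under LOC symbols carry an NCBI gene number, and of 9728 such rows 3889 were found by that number in the RefSeq gene table of GRCr8. Of these, 87 rows now bear the name of a ribosomal protein gene or of a numbered copy or pseudogene of one, from 51 genes in all. They held 716418 counts, 7.03% of the sum of these rows and the 83 members (9471374 counts). LOC100362640, now named Rps4x itself, held 196741 counts against 70188 in the Rps4x row. LOC100360117, now named as a pseudogene of Rpl8, held 25865 counts against 1676 in the Rpl8 row, and LOC498555, now named Rplp2l2, held 15414 against 2483 in the Rplp2 row. For those genes the larger part of the counts stood under another symbol. Levels of members with such copies are therefore uncertain. Ribosomal proteins whose genes have other symbols were not members, among them Fau (median 104 and 133 CPM in the 2 studies), Gnb2l1, the gene of the scaffold protein Rack1 (391 and 441 CPM), and Rpl36al (12.2 and 2.46 CPM).

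Most members stood higher in the 30 mg/m3 study, by unequal amounts. Among 82 members tested, 17 were higher in all 36 libraries of the 30 mg/m3 study than in any of the 28 libraries of the 10 mg/m3 study, where 0.253% of all 16190 genes tested showed the same. None of the 82 was lower in all libraries, against 0.161% of all genes. The 41 genes higher in every library of the 30 mg/m3 study also held 24 that were not members, among them Eef1a1, an elongation factor of translation (medians of 1386 and 3468 CPM), the glycolytic enzyme Gapdh (ratio 2.59), the chaperone Hspa8 (7.13) and the ferritin light chain Ftl1 (2.60). These 4 were chosen after their values were seen. The median ratio of the medians, 30 over 10 mg/m3 study, was 1.35 over the 80 members with a median above 0 in both, and 0.997 over all genes. A ratio above 1.5 was found for 30 of the 80 members (37.5%), against 2.94% of all genes. Air and dust rats are mixed in these ranges. Among the air rats alone, 14 and 18 in the respective studies, the median ratio was 1.33, and 23 of the 82 members stood higher without overlap at 30 mg/m3, beside 0.760% of all genes. All 17 were among the 23, while Rps27a and Rps19l1, a row of few counts, stood lower without overlap, beside 0.247% of all genes. The gap was thus present between rats that breathed no dust; whether the studies' tables were made in the same way was not tested.

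Rpl38, a large subunit protein known for its part in the translation of Hox mRNAs in the mouse embryo, stood furthest apart. It lay between 0.316 and 2.91 CPM in the 10 mg/m3 study, with 3 to 20 counts in each library, and between 42.9 and 143 CPM in the 30 mg/m3 study, a ratio of medians of 58.4. In air rats alone the medians of Rpl38 were 1.29 and 77.9 CPM. Rps12 lay between 4.59 and 24.4 CPM and between 28.7 and 119 CPM, a ratio of 7.69. Rpl36 followed with 2.53 to 30.5 CPM and 52.8 to 115 CPM, Rpl36a with 3.36 to 21.5 CPM and 49 to 81.1 CPM, and Rpl39 with 1.53 to 29.7 CPM and 52.4 to 145 CPM. In none of these 5 did a library of one study reach the range of the other. The other 12 included Rpl31 (ratio 3.05), Rps25 (2.79), Rpl10a (2.61), Rps15a (2.54), Rpl37 (2.28), Rpl13 (2.16), Rps13 (1.77), Rps29 (1.74), Rps18 (1.61) and Rpl9 (1.53). Rpl3 (566 and 602 CPM) and Rpl18 (233 and 258 CPM) had overlapping ranges. Of the 80 members 8 had a ratio below 1, among them Rps6 (0.940 and 0.249 CPM), Rps27a and Rps16 (192 and 101 CPM).

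**Figure D2:**
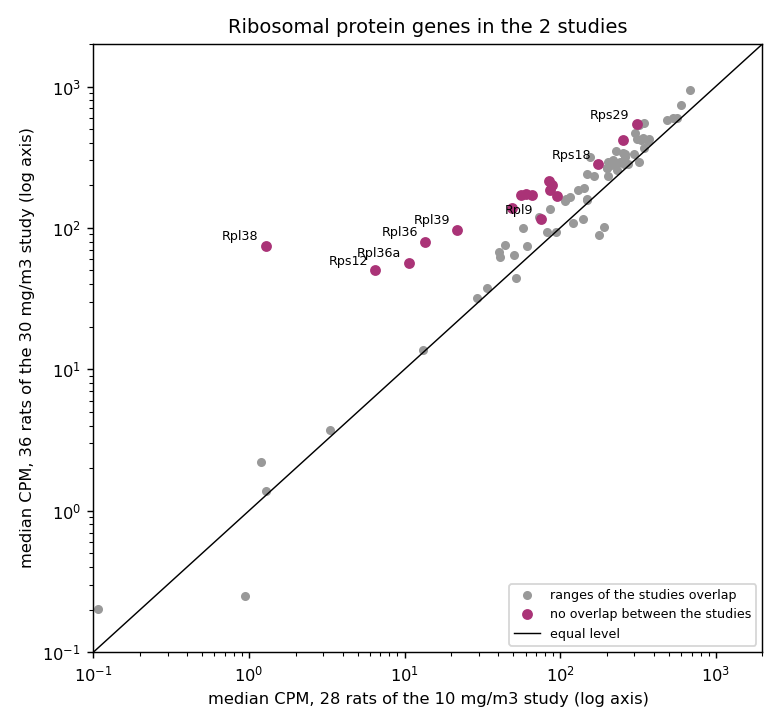
Median CPM of each member over the 28 rats of the 10 mg/m3 study (horizontal log axis) against the 36 rats of the 30 mg/m3 study (vertical log axis), with the line of equal levels. Purple points are the 17 members whose ranges in the studies do not overlap, 8 of them labelled; Rpl38 lies furthest above the line, at 1.28 against 74.7 CPM.

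Adding the rows that RefSeq now names as copies narrowed some of these gaps. With its copies, Rps12 went from 6.50 to 51.1 CPM in the 10 mg/m3 study and from 50.01 to 80.1 CPM in the 30 mg/m3 study, and its ratio fell to 1.57 with overlapping ranges. The copy row LOC100361933 (now Rps12l8), was at 43.97 CPM at 10 mg/m3 and 29.1 CPM at 30 mg/m3. Rpl38 with its 2 copy rows kept a ratio of 32.6, at 2.33 and 75.9 CPM. Of the 17 members, 13 still had no overlap with their copies added, and the median ratio of the 17 was 2.16 with copies and 2.61 without. Rps27a went the other way in its own row, from 177 CPM in the 10 mg/m3 study to 89.6 CPM in the 30 mg/m3 study, while LOC100912032, now also named Rps27a, went from 4.49 to 172 CPM. With its copies Rps27a stood at 183 and 258 CPM. Other gaps widened or turned when copies were added. The ratio of Rps26 went from 1.58 to 1.96, without overlap, that of Rps19 from 1.28 to 1.75 and that of Rps4x from 0.823 to 1.40. Of the 87 copy rows 43 were among the genes tested, and 8 of these were lower in every library of the 30 mg/m3 study and 2 higher. The lower ones included LOC100362479, now Rpl15l3, with medians of 25.2 and 1.62 CPM, and LOC689899, now a pseudogene of Rpl23a, with 31.6 and 1.74 CPM, so these copy rows went against the direction of most members. The number of pseudogenes named after a member in GRCr8 had the same median, 11, in the 17 members and in 56 of the members with overlapping ranges. Members with the symbol of a paralog or numbered copy, such as Rpl22l1, Rpl3l and Rps4y2, were left out of that comparison. Members with the pyrimidine tract at the annotated start included 6 of 22 without overlap. Those without it included 7 of 35, with Rpl3l, Rpl22l1, Rpl7l1, Rps27l and Rps4y2 again left out.

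Within groups the members differed widely in how steady they were. The median standard deviation of the log2 level around the group means was 0.21 over 82 members and 0.22 over all genes tested, and 9 members (11%) lay above 0.5, against 7.29% of all genes. The most variable were Rplp2 (1.38), Rps16 (0.93) and Rpl8 (0.82). Rplp2, one of the acidic stalk proteins, was near 0 in most rats and high in a few. It held 1 to 47 counts in 60 libraries and 599, 322, 315 and 435 counts in rats 57 (dust, day 1), 70 (air, day 7), 76 (dust, day 7) and 94 (dust, day 27), all of the 30 mg/m3 study. These 4 libraries stood at 62.3, 38.97, 33.5 and 62.4 CPM, where the other 60 had at most 7.20 CPM. Rpl8, a large subunit protein, held 4 to 34 counts in 62 libraries, 400 in rat 54 (air, day 1) and 302 in rat 92 (dust, day 27), again of the 30 mg/m3 study. No rat was high in both genes, and the high rats were of both treatments. The row named as the Rpl8 pseudogene held 238 and 400 counts in the 2 high rats, inside its range of 169 to 652 in the others, and the 2 Rplp2 copy rows of the 4 high rats also lay inside the range of the other rats.

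Rps16, a small subunit protein, varied over a continuous range. In air rats at day 1 of the 10 mg/m3 study it stood at 7.97, 22.2, 34.2, 68.0 and 253 CPM (rats 17 to 21). In dust rats of that day it stood at 218, 96.7, 99.0, 131 and 124 CPM (rats 27 and 29 to 32). Rat 21 alone of the air rats lay above all dust rats, and the other 4 lay below them. The Rnr1 and Rnr2 share of the same 5 air libraries was 0.0961%, 0.127%, 0.120%, 0.314% and 3.01%, so the rat highest in Rps16 was also highest in mitochondrial ribosomal RNA. At day 27 Rps16 stood at 274, 286, 252 and 203 CPM in the 4 air rats and at 247, 218, 281 and 250.3 CPM in the 4 dust rats, which overlapped. Against day 1 the air rats differed by a log2 fold change of 1.71 ± 0.54 (SE), which did not pass (edgeR adjusted p = 0.0843). It passed in DESeq2 (1.72, adjusted p = 0.0353) and in limma voom (2.58, adjusted p = 0.0104), and in edgeR without rat 21 (2.93, adjusted p = 4.7e-05). With the Rnr1 and Rnr2 share as a covariate it was 0.17 (edgeR adjusted p = 0.912).

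**Figure D3:**
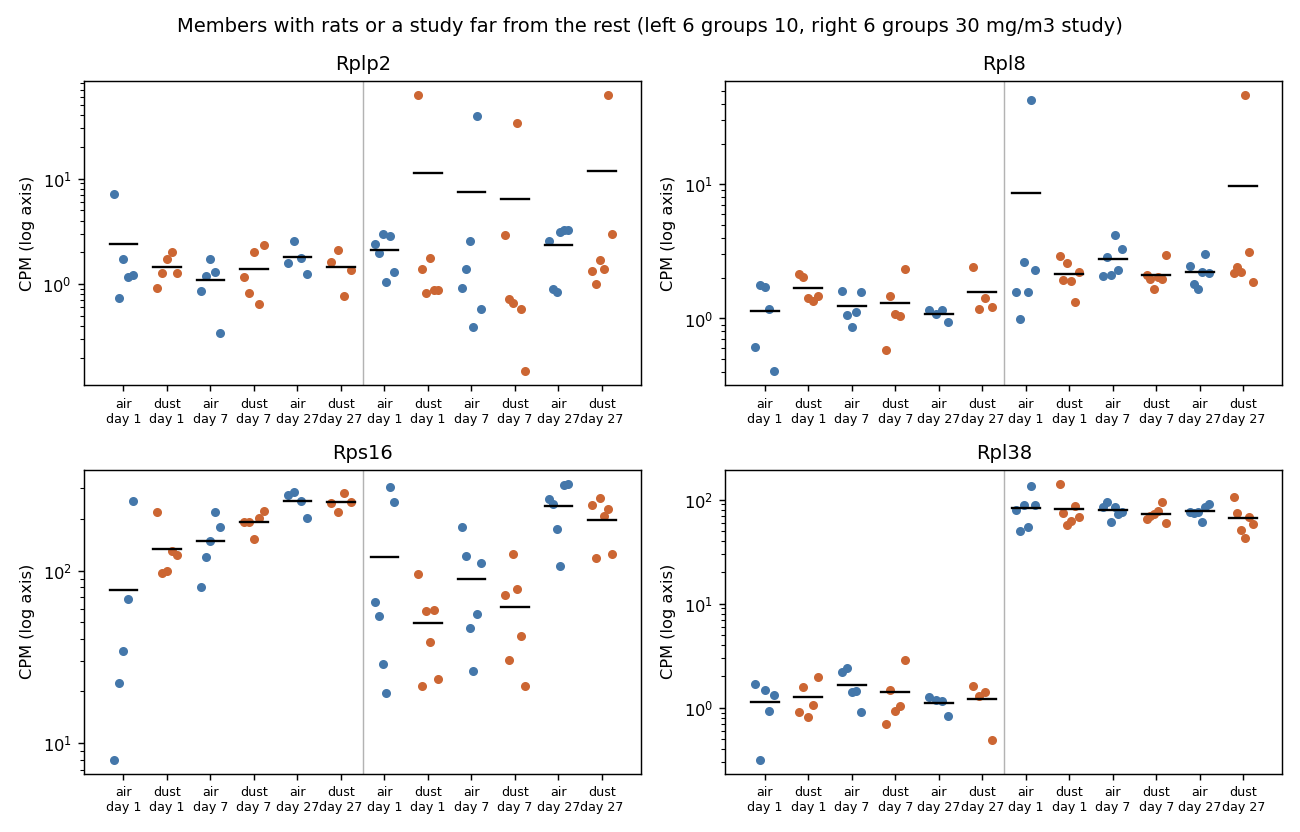
CPM (log axis) of Rplp2, Rpl8, Rps16 and Rpl38 in each rat by group, blue for air and orange for dust, with the group mean as a bar; groups left of the line belong to the 10 mg/m3 study and those right of it to the 30 mg/m3 study. Rplp2 is high in 4 rats and Rpl8 in 2, Rps16 spreads widely within groups, and Rpl38 separates the studies.

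The comparison of dust with air on each day asks whether the inhaled dust moved these genes. No member passed in any of the 6 comparisons (edgeR's quasi-likelihood test with Benjamini-Hochberg adjustment at 0.05 over all genes). Among all genes, the share that passed was 0.128% at 10 mg/m3 on day 1, 0.0643% at 30 mg/m3 on day 7 and 0% in the other 4 comparisons. At an unadjusted p under 0.05 there were 7, 1 and 1 of 81 members at 10 mg/m3 on days 1, 7 and 27, and 12, 1 and 2 of 79 at 30 mg/m3. The 12 members at day 1 of 30 mg/m3 are 15.2% of those tested, beside 15% of all genes in that comparison, and the 7 at day 1 of 10 mg/m3 are 8.64%, beside 18.9%. On days 7 and 27 the share of members was 1.23% to 2.53%, beside 2.36% to 7.34% of all genes. DESeq2 called 1 member at 10 mg/m3 on day 1 (Rps2), beside 474 of all genes, and 0 members in the other 5. The median standard error of a member's log2 fold change was 0.12, 0.12 and 0.13 on the 3 days at 10 mg/m3 and 0.11 on each day at 30 mg/m3.

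The family as a whole lay near the middle of all genes. At 10 mg/m3 the median log2 fold change of the members was -0.06 on day 1, -0.06 on day 7 and -0.07 on day 27, where the median of all genes was -0.01 each time. At 30 mg/m3 it was 0.12 on day 1, with 68 of 79 members above 0 and an all-gene median of 0.02, then -0.02 on day 7 and -0.06 on day 27. In the other comparisons most members lay below 0. These were 52, 55 and 67 of 81 on days 1, 7 and 27 at 10 mg/m3, and 46 and 63 of 79 on days 7 and 27 at 30 mg/m3. Members share libraries and scaling, so their common direction counts once per rat and not once per gene. The large subunit gave 0.12 and the small subunit 0.15 on day 1 of 30 mg/m3. With each rat left out in turn the day 1 median at 30 mg/m3 stayed between 0.05 and 0.17, and at 10 mg/m3 between -0.12 and 0.02. Rats 57 (2.52% of counts on members) and 58 (2.33%) had the highest shares of that dust group, and air rats of the same day had 1.85% to 2.27%. The 6 proliferation genes had a median of 0.38 in the same comparison, with 6 of 6 above 0 and none past the test; their part in the members' values was not tested.

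**Figure D4:**
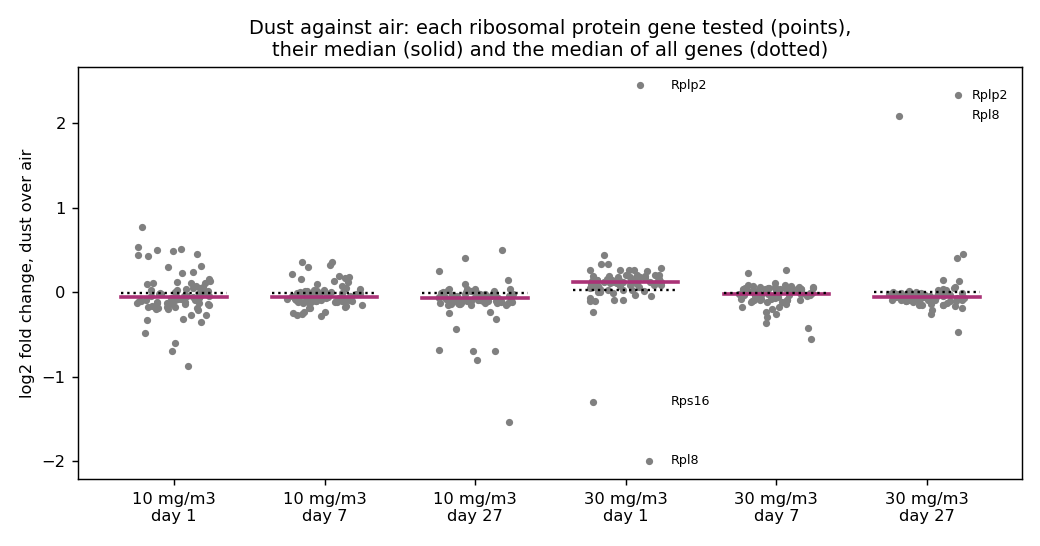
Log2 fold change of dust over air (vertical axis) for each member tested in the 6 comparisons, with the members' median as a solid line and that of all genes as a dotted line. Medians lie between -0.07 and 0.12, and the points furthest from 0 at 30 mg/m3 are Rplp2, Rpl8 and Rps16; none of the points passed the test.

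At 10 mg/m3 on day 1 the smallest p among members belonged to Rps2, a small subunit protein of the mRNA entry site. Rps2 stood at 46.7, 85.9, 90.9, 89.1 and 65.2 CPM in the air rats and at 114, 119, 96.0, 113 and 92.1 CPM in the dust rats, without overlap of the groups. Its log2 fold change of 0.51 ± 0.13 (SE) did not pass (edgeR adjusted p = 0.0774). Rps15 (0.45 ± 0.14) and Rpl7l1, a relative of Rpl7 (0.31 ± 0.12), came next, and Rps12 (-0.87 ± 0.33), Rpl9 (-0.20 ± 0.10) and Rpl30 (-0.27 ± 0.15) had the smallest p on the negative side. Air rat 18 held 24.4 CPM of Rps12, where the other 4 air rats held 5.36 to 8.14 CPM. Without air rat 21, which was also apart in Rps16, 4 of 81 members passed, all higher with dust, among them Rps2 (0.46, edgeR adjusted p = 0.0408) and Rpl7l1 (0.45). In that fit 1147 of all genes passed, against 20 with every rat kept, so the gain was not particular to the members. On day 7 the values nearest to passing were Rpl12 (0.22 ± 0.11), Rpl29 (0.12 ± 0.10) and Rpl10a (0.17 ± 0.15) on the positive side and Rpl9 (-0.28 ± 0.10), Rpl31 (-0.25 ± 0.14) and Rps25 (-0.19 ± 0.10) on the negative, all with an edgeR adjusted p of 0.996. On day 27 they were Rpl8, Rpl36a and Rpl17 (0.50, 0.26 and 0.41) and Rps19l1, Rps6 and Rpl10l (-1.53, -0.69 and -0.80), of which Rpl8, Rps19l1, Rps6 and Rpl10l are rows of few counts.

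At 30 mg/m3 on day 1 Rpl22l1 came first. It stood at 18.0, 32.1 and 33.6 CPM (lowest, median and highest of 6 air rats) and at 28.8, 36.6 and 59.4 CPM in dust rats, with overlapping groups, and its log2 fold change was 0.44 ± 0.15 (edgeR adjusted p = 0.229). Rpl7 (0.26 ± 0.10) and Rpl9 (0.26 ± 0.10) followed. On the negative side, Rpl8 (-1.99 ± 0.80) turned to 0.22 without air rat 54, Rps16 was at -1.29 ± 0.56 and Rpl28 at -0.23 ± 0.11. On day 7 the values nearest to passing were Rpl39 (0.27 ± 0.14), Rpl22l1 (0.23 ± 0.15) and Rps24 (0.12 ± 0.11), and Rpl28 (-0.25 ± 0.11), Rps10l1 (-0.29 ± 0.16) and Rpl13 (-0.17 ± 0.12). On day 27 Rpl8 (2.09 ± 0.79) was 0.10 without dust rat 92 and Rplp2 (2.33 ± 1.33) turned to -0.52 without dust rat 94, while Rpl17 was at 0.46 ± 0.22. Rps26, Rps12 and Rpl27 (-0.18, -0.47 and -0.15) were nearest to passing on the negative side.

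As the mean of the 3 days, 0 of 81 members passed in edgeR at 10 mg/m3, beside 0.0319% of all genes (0.0191% higher and 0.0128% lower), and 0 of 79 at 30 mg/m3, beside 1.20% (0.997% higher and 0.206% lower). Unadjusted p under 0.05 was reached by 6 members at 10 mg/m3 (7.41%, beside 9.27% of all genes) and 4 at 30 mg/m3 (5.06%, beside 17.8%). DESeq2 called 0 and 1 members, the 1 beside 420 of all genes. Rpl28, a large subunit protein with a pyrimidine tract at its start, was closest at 30 mg/m3, with a mean log2 fold change of -0.21 ± 0.06 (edgeR adjusted p = 0.0755). Its lowest, median and highest levels were 138, 165 and 192 CPM in air and 113, 130 and 193 CPM in dust on day 1. They were 147, 161 and 166 CPM against 119, 134 and 153 CPM on day 7, and 157, 171 and 211 CPM against 127, 163 and 199 CPM on day 27. The groups overlapped on each day. DESeq2 placed it past the threshold (-0.21, DESeq2 adjusted p = 0.0484), as did leaving out rat 57 (-0.26, edgeR adjusted p = 0.0238) or rat 89 (-0.24, edgeR adjusted p = 0.0353). Among the next in size of p were Rpl22l1 (0.20 ± 0.09), Rplp2, Rps16 (-0.70 ± 0.32) and Rps15 (-0.09 ± 0.05). At 10 mg/m3 they were Rps2 (0.19 ± 0.08), Rpl13 (0.21 ± 0.11) and Rps15 (0.15 ± 0.09), and Rpl9 (-0.17 ± 0.06), Rps25 (-0.18 ± 0.06) and Rps19l1.

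The test of whether the effect of dust depended on the day passed for 0 members and 0% of all genes at either dose. An unadjusted p under 0.05 was reached by 3 members at 10 mg/m3 (3.7%, beside 7.28% of all genes) and 2 at 30 mg/m3 (2.53%, beside 4.42%). DESeq2 and limma voom also called 0 members there. The difference between the doses in their mean effect passed for 0 of 82 members in edgeR, beside 2.09% of all genes (1.54% higher and 0.550% lower at 30 mg/m3). Under an unadjusted p of 0.05 were 9 members (11%), beside 22.4% of all genes. Rpl9, a large subunit protein, differed by 0.27 ± 0.09 on the log2 scale (edgeR adjusted p = 0.0634) and passed when any of 7 single rats was left out. Rpl28 differed by -0.40 ± 0.13 (edgeR adjusted p = 0.072), and Rps19l1, Rps24, Rps15 and Rps16 had the next smallest p. DESeq2 called Rpl9 and Rpl28 in this comparison, among 823 genes in all.

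Air rats of different days were compared to show what changed without dust. In the 10 mg/m3 study, 3 of 81 members fell from day 1 to day 7 and none rose, where 2.37% of all genes fell, 3.53% rose and 5.90% passed in either direction. These were Rpl12 (-0.42 ± 0.11, edgeR adjusted p = 0.0244), which forms the base of the stalk with Rplp0, Rpl4, which lines the peptide exit tunnel (-0.30 ± 0.09, 0.041), and Rplp0 itself (-0.34 ± 0.10, 0.0446). Rpl12 went from 99.0, 135, 151, 123 and 114 CPM to 93.8, 87.3, 108, 82.7 and 92.5 CPM. In these air rats Rpl4 went from 730, 807, 771, 770 and 548 CPM to 648, 587, 635, 500.2 and 564 CPM. Rplp0 went from 714, 913, 847, 923 and 644 CPM to 749, 597, 694, 512 and 641 CPM. All 3 genes overlapped between the days, with rats 17 and 21 the lowest of day 1 in Rplp0. The median of the members was -0.21 with 68 of 81 below 0, while the median of all genes was 0.00, and 34.6% of members and 22.9% of all genes had an unadjusted p under 0.05.

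These calls depended on single rats, as did the number of all genes that passed, which was 925 with every rat kept. Without air rat 18, 19, 34 or 37 no member passed from day 1 to day 7, without rat 20 or 39 1 did, without rat 17 6 did and without rat 21 16 did, 2 of them higher. All genes that passed numbered 296, 384, 399 and 617 without rats 18, 19, 34 and 37. They numbered 462 and 602 without rats 20 and 39, and 2099 and 1391 without rats 17 and 21. Fitted on those 2 groups alone, or with the Rnr1 and Rnr2 share as a covariate, 0 members passed, beside 316 and 892 of all genes. Rpl4 went to -0.08 with that covariate. The Rnr1 and Rnr2 share was 0.127% in the median of day 1 and 0.956% in that of day 7, and its part in these values was not tested beyond that fit. The T cell marker Lck fell as well (-0.41 ± 0.11, edgeR adjusted p = 0.0274), 1 of 7 T cell markers. The summed level of those 7 was 70.5 to 97.6 CPM on day 1 and 68.7 to 86.0 CPM on day 7, and its part in the result was not tested.

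**Figure D5:**
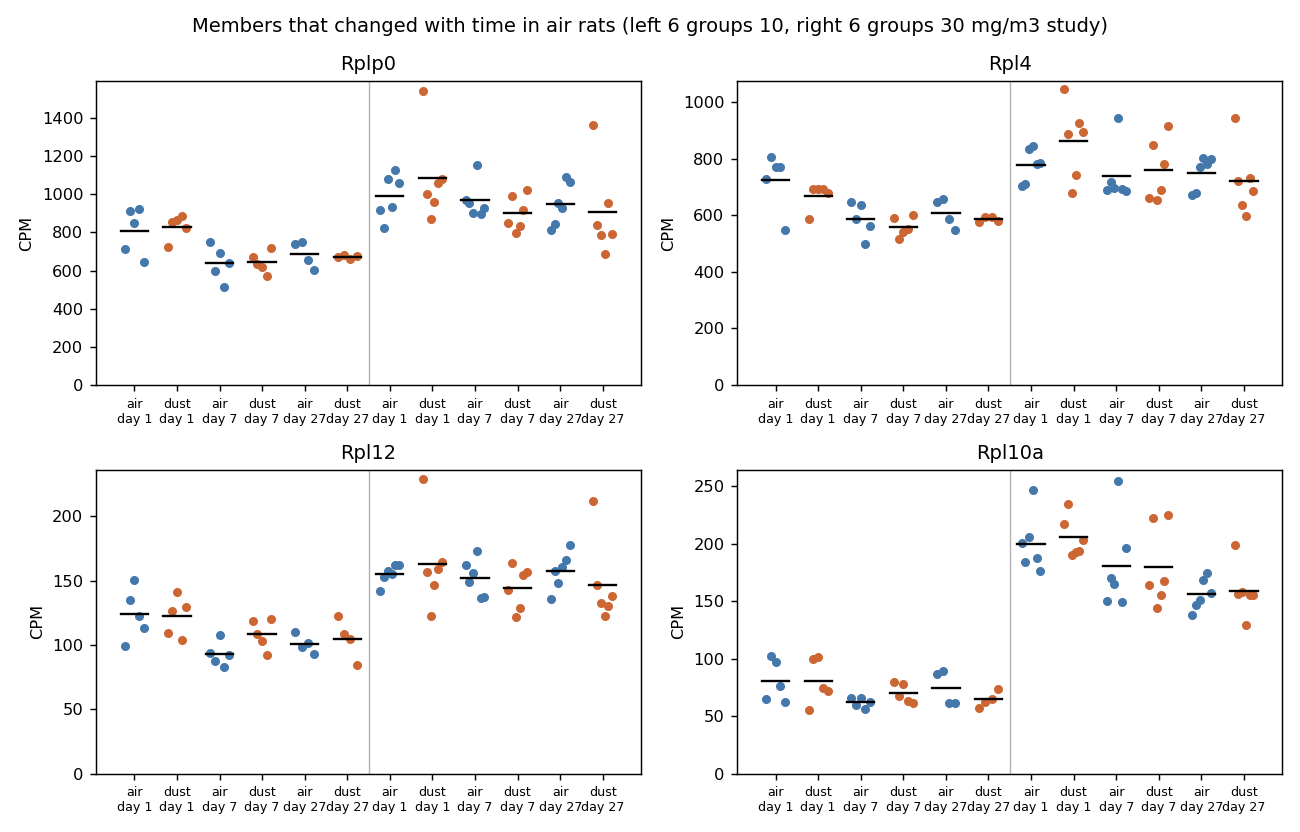
CPM of Rplp0, Rpl4, Rpl12 and Rpl10a in each rat by group, blue for air and orange for dust, with the group mean as a bar; groups left of the line belong to the 10 mg/m3 study and those right of it to the 30 mg/m3 study. Air rats of day 1 and day 7 overlap in Rplp0, Rpl4 and Rpl12 at the left, and Rpl10a separates the studies.

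From day 1 to day 27 in the same study, Rpl7l1 rose (0.48 ± 0.13, edgeR adjusted p = 0.039) and no other member passed, where 2.97% of all genes did (2.08% rose and 0.894% fell). It went from 40.8, 67.3, 76.2, 83.7 and 99.4 CPM to 102, 103, 106 and 98.7 CPM, with rat 21 inside the range of day 27. Rpl28 (0.65 ± 0.21) and Rps16 had the next smallest p on that side, and Rpl22l1 (-0.53 ± 0.16, edgeR adjusted p = 0.064) and Rpl4 (-0.25 ± 0.09) were among those on the other. The call of Rpl7l1 was lost without rat 18, 19, 1, 3 or 5, with the groups fitted alone (edgeR adjusted p = 0.32), with scaling by library totals (0.0634) and with no filter on low counts (0.0549). With the Rnr1 and Rnr2 share as a covariate its log2 fold change was 0.14 (edgeR adjusted p = 0.834). Without rat 17, 2 members passed, beside 361 of all genes. Without rat 21, 10 members passed, 4 of them higher, beside 1467 of all genes. All genes that passed numbered 2, 99, 133, 153 and 58 without rats 18, 19, 1, 3 and 5. They numbered 0 with the groups fitted alone and 5 with the Rnr1 and Rnr2 share as a covariate. These moves were thus not particular to the members. Rpl22l1 turned to 0.11 with that covariate.

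In the 30 mg/m3 study no member passed from day 1 to day 7 in edgeR, beside 0.116% of all genes (0.0643% rose and 0.0514% fell). Under an unadjusted p of 0.05 were 14 members (17.7%), beside 12% of all genes. DESeq2 called 1 member, beside 96 of all genes. The smallest p belonged to Rpl31l4, a row with the name of a copy of Rpl31 (-0.49 ± 0.14, edgeR adjusted p = 0.147), which passed without rat 69 (-0.60) and in DESeq2. Rpl21 (-0.31 ± 0.10) and Rps24 (-0.31 ± 0.11) came next, with Rps21 (0.33 ± 0.11), Rps28 (0.25 ± 0.09) and Rpl9 (0.28 ± 0.10) on the positive side. From day 1 to day 27, 3 of 79 members passed, where 12.9% of all genes did (5.55% rose and 7.36% fell). Rpl31l4 fell by 0.59 on the log2 scale (SE 0.14, edgeR adjusted p = 0.00559). It stood at 72.7, 85.4 and 97.6 CPM (lowest, median and highest of 6 air rats) on day 1 and at 46.1, 56.1 and 70.2 CPM on day 27, without overlap. Rpl10a fell by 0.36 (SE 0.11, edgeR adjusted p = 0.0319), from 176, 194 and 246 CPM to 138, 154 and 174 CPM, also without overlap. Rps28, a small protein of the mRNA exit region, rose by 0.33 (SE 0.09, edgeR adjusted p = 0.0136), from 69.5, 85.7 and 103 CPM to 98.9, 107 and 116 CPM, with overlap.

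The fall of Rpl31l4 kept its call with each of the 12 rats left out, between -0.65 and -0.52. Rpl10a lost it with 7 of 12 rats left out (rats 49, 52, 53, 81, 82, 83 and 87) and Rps28 without rat 53, for which Rpl31l4 alone passed. Without rat 84, 7 members passed, beside 2230 of all genes. Without rats 51 and 53 together 1 member passed, Rpl31l4, beside 1052 of all genes. With every rat kept 2007 of all genes passed. With the Rnr1 and Rnr2 share as a covariate 0 members passed, beside 185 of all genes. Rpl10a was then at -0.16, Rpl31l4 at -0.41 and Rps28 at 0.28 (edgeR adjusted p = 0.59, 0.172 and 0.186). That share was 0.128% to 0.903% on day 1 and 0.456% to 1.62% on day 27. Of the 6 genes listed for proliferation, 5 fell in the same comparison, Cdk1 among them (-1.14 ± 0.18), and their summed level was 112 to 147 CPM on day 1 and 60.3 to 105 CPM on day 27; its part in the changes of the members was not tested.

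Genes that act with ribosomal proteins were read from lists. Of 17 genes tested for translation factors and other mRNAs with pyrimidine tracts, 33 to 35 for ribosome biogenesis, 17 for TOR signalling and regulators of these genes and 69 for mitochondrial ribosomal proteins, none passed in the 6 daily comparisons of dust with air in edgeR. At an unadjusted p under 0.05 each of these lists had its highest count on day 1. At 10 mg/m3 there were 4 of 17 translation genes and 5 of 69 mitochondrial genes, beside 18.9% of all genes. At 30 mg/m3 there were 5 of 35 biogenesis genes and 5 of 17 TOR genes, beside 15% of all genes. The 4 ribosomal protein genes under other symbols gave 0 calls in any comparison, and 1 of them an unadjusted p under 0.05 between days 1 and 7 in air rats at 30 mg/m3 and in the day dependence of the dust effect at 30 mg/m3. In the mean effect of dust at 30 mg/m3, 1 of 17 TOR and regulator genes fell, Eif4ebp2 (-0.27 ± 0.07, edgeR adjusted p = 0.048), which encodes a repressor of the cap-binding protein eIF4E. It also differed between the doses (-0.51 ± 0.14, edgeR adjusted p = 0.0455), the only gene of these lists to do so. From day 1 to day 7 in air rats of the 10 mg/m3 study, Eif3f (-0.49 ± 0.11) and Eef1g (-0.27 ± 0.08) fell and Hnrnpa1 rose (0.50 ± 0.15). In the same comparison 4 of 33 biogenesis genes rose and none fell, with Gar1, Gnl2 and Tsr1 first (1.00 ± 0.25, 0.41 ± 0.11 and 0.39 ± 0.10), while 3 of 69 mitochondrial ribosomal protein genes fell, among them Mrpl28 (-0.50 ± 0.13). Of all genes 3.53% rose and 2.37% fell there. The median over the biogenesis list was 0.11 and that over the mitochondrial list -0.13, beside -0.21 for the cytosolic members.

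From day 1 to day 27 the biogenesis list gave 5 higher and 0 lower of 33 at 10 mg/m3 and 4 higher and 1 lower of 35 at 30 mg/m3. Tsr1, an assembly factor of the small subunit, rose in both (0.50 ± 0.11 and 0.45 ± 0.09). Nop10, a part of the pseudouridylation particle, fell by 0.51 (SE 0.12) at 30 mg/m3. Tsc1, a brake on mTOR, also rose in both studies (0.72 ± 0.18 and 0.70 ± 0.17), and at 30 mg/m3 so did Rptor, the mTOR partner, and Tsc2 (0.42 ± 0.14 and 0.22 ± 0.08). Of the mitochondrial ribosomal protein genes, 1 rose and 1 fell at 10 mg/m3, and 7 of 69 fell and none rose at 30 mg/m3, led by Mrpl42 (-0.57 ± 0.12). Of all genes, 2.08% rose and 0.894% fell at 10 mg/m3, and 5.55% rose and 7.36% fell at 30 mg/m3, 12.9% in all. The 5 of 35 biogenesis genes at 30 mg/m3 thus lay near the share of all genes. The calls at 10 mg/m3 depended on the fit. With the groups fitted alone 0 of all genes passed there, so none of these list genes did. With the Rnr1 and Rnr2 share as a covariate 5 of all genes passed, and without rat 18 only 2 did. The rises of Tsr1 and Tsc1 in both studies therefore did not hold in every fit.

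Rpl3l replaces Rpl3 in striated muscle, and the libraries carried varying amounts of heart muscle transcripts, with a summed level of 12 cardiac genes such as Myh6, Myl3 and Ttn from 63.5 to 1990 CPM at 10 mg/m3 and from 125 to 1930 CPM at 30 mg/m3. In the 30 mg/m3 study the log2 level of Rpl3l and the mean log2 level of the cardiac genes were related over the 36 rats (Pearson's r = 0.565, permutation p = 0.00041, adjusted 0.00082; Spearman's rho = 0.611, permutation p = 0.00015, adjusted 0.0006; two-sided, adjusted over 4 relations). Without the 2 rats furthest from the median of the cardiac level r was 0.54. In the 10 mg/m3 study, where Rpl3l had 32 counts over 28 libraries against 121 counts over the 36, no relation was found (r = -0.0206, permutation p = 0.92; rho = 0.0711, permutation p = 0.72), and r was -0.022 without the 2 furthest rats. The difference between the studies was not tested, and at 0 to 5 counts in a library the depth at 10 mg/m3 shows little. With values centred on their group means r was 0.535 and 0.219. Among the cardiac genes 2 of 11, Ryr2 (-2.50 ± 0.49) and Ttn (-2.09 ± 0.42), were lower with dust on day 7 of the 30 mg/m3 study (median -2.18 over the 11), and no member of the ribosomal family was called. The summed level of the 12 cardiac genes had a mean of 1056 CPM in those air rats and 257 CPM in those dust rats. Air rats of days 1 and 27 of that study had 393 CPM each. At 10 mg/m3 on day 7 the list went the other way with dust (median 1.54, 10 of 10 above 0, 0 called). The cause was not tested.

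Most members moved together from rat to rat. Over the 3321 pairs of 82 members, with levels centred on their group means, the median correlation across rats was 0.543 at 10 mg/m3 and 0.521 at 30 mg/m3, and 90.3% and 85.5% of the pairs were above 0. These values describe libraries that share depth and scaling and carry no p. Against the mean of the other members, 36 and 33 of the 82 had a correlation above 0.8, and 8 and 11 had one below 0.3. The same values were not computed for all genes or for another list. Whether such correlations are particular to this family was therefore not tested.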

How the data were processed

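Total RNA from a piece of lung of 64 rats lost its ribosomal RNA by depletion before stranded libraries were made, per the labels' protocols. The authors deposited 2 tables of read counts for 30045 gene symbols, one table for each dose. The submitters' processing notes name bcl2fastq 2.19, Trimmomatic 0.35, HISAT2 2.1.0, SAMtools 1.8, HTSeq 0.6.1 and the build Rnor_6.0; the sources used here do not give the annotation, strand setting or rule for reads with several matches. Multi-mapping reads and genes with intronless copies are therefore uncertain.

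Tests on the counts used edgeR 4.0.16 under R 4.3.3 (quasi-likelihood test, TMM factors, filterByExpr with a minimum count of 10 and a minimum total of 15), all 6 groups of a study in 1 fit and all 12 for the difference between doses, with Benjamini-Hochberg adjustment at 0.05 over all genes tested. Of the 83 members, 81, 79 and 82 passed the filter in the 10 mg/m3 study, the 30 mg/m3 study and the joint fit. DESeq2 1.42.0, limma 3.58.1 (voom), other scaling, no filter, only the groups compared and each rat left out were alternatives; 3 more, without rats 51 and 53, with the Rnr1 and Rnr2 share as a covariate and with the air rats alone between the studies, were added after seeing the data. The pipeline was tested on simulated data. Replicate libraries of a group differed by more than sampling noise in all 142 pairs (chi-square per degree of freedom 2.14 to 51.4).

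Named members are those that passed, and where fewer than 3 did, the 3 smallest p in each direction, besides a panel of 12. Rpl38, the other members that separate the studies, and the rats high in Rplp2, Rpl8 or Rps16 were chosen after their values were seen. Values of a few genes that the rule names are not reported here. Members and lists were chosen with earlier results of these data known. The planned ranking per coding length was not made, so levels of different genes are not ranked. Sequences are RefSeq GRCr8 and not the build of the counts.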

Additional observations from a re-analysis of the deposited data

Results flagged for a closer look

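In 22 of 204 sets of a gene or share within a group of 4 to 6 rats, 1 rat stood further from the rest than Dixon's limit at 95% allows. Chance gives about 1 in 20 for genes chosen without sight of their values. Rplp2, Rpl8, Rps16 and Rpl38 were among these genes and were chosen after their values were seen. The count of 22 therefore cannot be set against chance. Rat 27 (dust, 10 mg/m3, day 1), the shallowest library, had 1.14% of counts on members, where the others of its group had 1.60% to 1.69%. It was also apart in Rpl4 (587.6 CPM), Rps16 (217.8 CPM), Rpl22l1 (18.35 CPM) and Rps27l (21.72 CPM). Rat 69 (air, 30 mg/m3 study, day 7) had 2.45% of counts on members, where the others had 1.85% to 1.93%, with Rplp0 at 1155 CPM, Rpl4 at 945.1 CPM and Rpl31l4 at 85.89 CPM, all above its group. Rat 57 (dust, 30 mg/m3, day 1) was above its group in Rplp0 (1541 CPM), Rpl38 (142.9 CPM), Rps2 (161.4 CPM) and Rplp2 (62.25 CPM).

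Rplp2 was apart in rat 17 (air, 10 mg/m3 study, day 1) at 7.20 CPM and, in the 30 mg/m3 study, in rat 70 (air, day 7) at 38.97 CPM, rat 76 (dust, day 7) at 33.50 CPM and rat 94 (dust, day 27) at 62.37 CPM. Rpl8 was apart in rat 54 (air, day 1) at 42.59 CPM, rat 79 (dust, day 7) at 2.966 CPM and rat 92 (dust, day 27) at 46.43 CPM. Rps16 was apart in rat 21 (air, 10 mg/m3 study, day 1) at 252.5 CPM, where the other 4 had 7.97 to 68.0 CPM, and Rpl12 in rat 89 (dust, 30 mg/m3, day 27) at 212.0 CPM, where the others had 122 to 147 CPM.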

How the results depend on the processing

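No paired analysis was possible because each library has its own rat number and the groups share none. The median change of the members stayed within the spread between rats in all 43 other settings and all 64 fits without 1 rat. That is a weak check, since a median near 0 can change sign within that spread. With a rat left out the range crossed 0 at 10 mg/m3 on day 1 (-0.12 to 0.02) and day 7 (-0.10 to 0.009). It also did at 30 mg/m3 on day 7 (-0.05 to 0.05). Counts of members called moved as follows. For dust at 10 mg/m3 on day 1 (0) DESeq2 gave 1, and leaving out a rat 0 to 4 (4 without rat 21). For air at 10 mg/m3, day 7 against day 1 (3), no filter gave 1, DESeq2 8, the groups alone 0 and the Rnr covariate 0, and leaving out a rat 0 to 16. For day 27 against day 1 (1) library totals gave 2, no filter 0, DESeq2 5, voom 2, the groups alone 0 and the Rnr covariate 0, and leaving out a rat 0 to 10. For the mean dust effect at 30 mg/m3 (0) no filter gave 1, DESeq2 1 and leaving out a rat 0 to 1 (1 without rat 57 or 89). For air at 30 mg/m3, day 7 against day 1 (0), DESeq2 gave 1 and leaving out a rat 0 to 1 (1 without rat 69). For day 27 against day 1 (3) DESeq2 gave 6, the groups alone 8, the Rnr covariate 0 and leaving out rats 51 and 53 1, and leaving out a single rat 1 to 7 (1 without rat 53, 7 without rat 84). For the difference between doses (0) DESeq2 gave 2, leaving out rats 51 and 53 1, and leaving out a single rat 0 to 4 (4 without rat 21, and 1 without rat 37, 53, 57, 69, 73, 75, 84 or 91). Counts over all genes moved as well, for example from 20 to 1147 for dust at 10 mg/m3 on day 1 without rat 21. The cause was not tested.

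Of 497 values of named genes in other settings 464 kept direction and side of the threshold, 18 lost the call, 11 gained it and 4 turned direction. With the Rnr covariate Rpl22l1 and Rpl4 turned to 0.11 and 0.14 in air at 10 mg/m3, day 27 against day 1, and Rpl22l1 and Rps24 to -0.021 and -0.026 for dust at 30 mg/m3 on day 7. Of 1291 values without 1 rat 3 turned: Rpl36a to -0.094 without rat 15 (dust at 10 mg/m3, day 27; range -0.094 to 0.391), Rpl8 to 0.216 without rat 54 (dust at 30 mg/m3, day 1; -2.24 to 0.216) and Rplp2 to -0.520 without rat 94 (day 27; -0.520 to 2.585). Within 5 bases of the start 59.7% of members had the tract. The Rpl3l relation at 10 mg/m3 was 0.219 when centred on group means. Members of few counts (Rpl8, Rplp2, Rps6, Rps19l1) are limited by depth.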
